A study of Mus musculus with 21 samples.

Results

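The genes described here encode the subunits of the receptors for glutamate, GABA and glycine, the main fast transmitters of the mouse hindbrain. They were chosen by gene symbol: every AMPA (Gria), kainate (Grik), delta (Grid), NMDA (Grin) and metabotropic glutamate (Grm) receptor gene, every GABA-A subunit gene (Gabra to Gabrr) and every glycine receptor gene (Glra and Glrb). Among 45664 gene rows counted, 50 carried such a symbol, and the 48 with at least 30 counts summed over the 21 libraries were kept. All 48 were among the 22294 genes tested. Gabrp and Grm6, with 8 counts each, fell just outside this minimum, while Gabrr3 (30 counts), Gabrr1 (62) and Glra4 (294) were the lowest members inside it. The members comprised 4 AMPA, 5 kainate, 2 delta, 7 NMDA, 7 metabotropic glutamate, 18 GABA-A and 5 glycine receptor genes.

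The study asked how the ventral pons responds when the facial motor neurons within it lose their axons. The right facial nerve of C57BL/6 mice was cut at the stylomastoid foramen when they were 8 weeks old. RNA was taken from the lesion side (the right) and from the uncut contralateral side (the left) 7, 14 and 30 days later, at 9, 10 and 12 weeks of age. Unoperated mice of 8 weeks served as day 0, from which the left ventral pons was taken, and each of the 7 groups had 3 libraries. All groups, controls included, were CX3CR1GFP/wt, a line in which green fluorescent protein replaces 1 copy of a microglial chemokine receptor gene. The dissected block held the facial nucleus together with parts of the reticular and spinal trigeminal nuclei, so motor neurons were a small part of it.

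AMPA, kainate and NMDA receptors are cation channels opened by glutamate, and metabotropic glutamate receptors act through G proteins. GABA-A and glycine receptors are chloride channels that carry most fast inhibition in the brainstem, where motor neurons receive both. Each channel is assembled from several subunits, and the subunits present set its kinetics, its permeability and its drug sensitivity.

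Depth was 35874913 to 41448945 counts at day 0 and 17358868 to 29827291 counts in the operated groups, and receptor genes took 0.254 to 0.341% of them. The share of mitochondrial counts was 3.05 to 3.60% at day 0, and it was 2.81% in day 14 lesion replicate 2 against 4.40 to 4.76% in the other day 14 libraries. The 2 injury genes Sprr1a and Atf3 summed to 240 to 391 CPM (counts scaled to library size with edgeR's TMM factors) on the lesion side at day 7, 264 to 336 CPM at day 14 and 45.2 to 104 CPM at day 30. They summed to 1.46 to 2.89 CPM in the contralateral libraries, below every lesion library. The hindbrain position genes Hoxb2, Hoxb3 and Hoxa2 summed to 10.5 to 19.8 CPM in all libraries. Choroid plexus markers summed to 10.5 to 952 CPM in 20 libraries and to 4583 CPM in day 7 lesion replicate 3, and markers of cerebellar granule and Purkinje cells to 55.2 to 197 CPM.

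**Figure D1:**
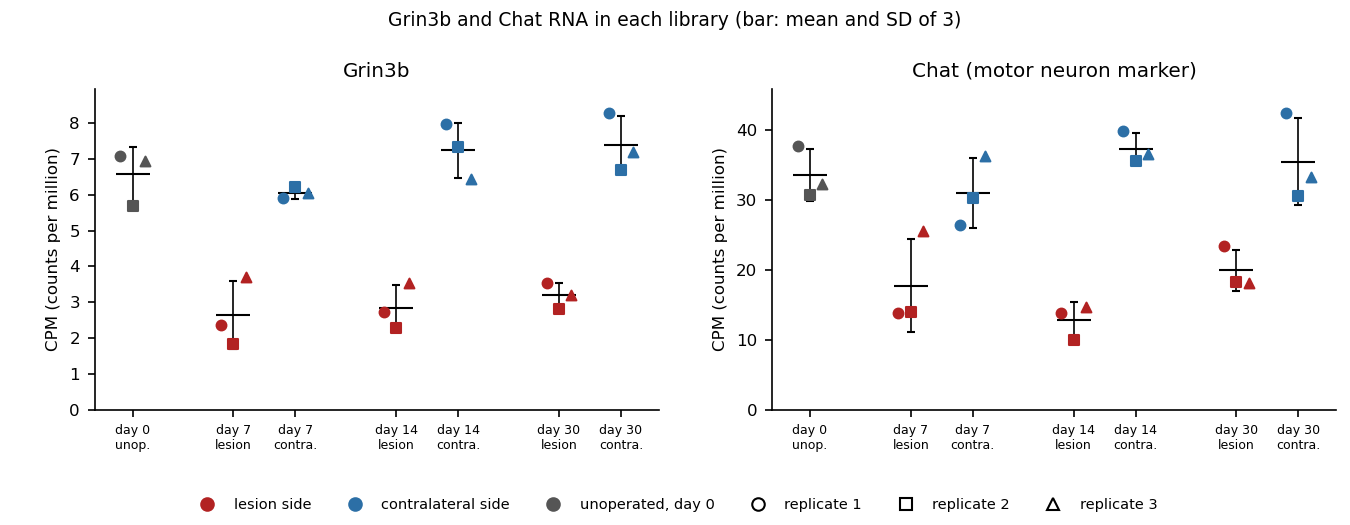
CPM of Grin3b (left) and of the motor neuron marker Chat (right) in each of the 21 libraries, with the mean and SD of 3 libraries as bars. Grin3b lies between 1.84 and 3.71 CPM in all 9 lesion libraries and between 5.69 and 8.28 CPM in all 12 others.

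Grin3b was the receptor gene that differed between the sides on every day. It encodes GluN3B, a glycine-binding NMDA receptor subunit known in rodents from motor neurons of the brainstem and spinal cord. At day 7 its level was 2.37, 1.84 and 3.71 CPM on the lesion side, against 5.90, 6.23 and 6.03 CPM on the contralateral side. At day 14 it was 2.73, 2.27 and 3.54 CPM on the lesion side, against 7.98, 7.32 and 6.44 CPM on the contralateral side. The sides did not overlap at either time. At day 30 the lesion side had 3.54, 2.82 and 3.21 CPM and the contralateral side 8.28, 6.70 and 7.19 CPM, again without overlap. The unoperated pons had 7.09, 5.69 and 6.94 CPM, above every lesion library, and its lowest value lay below all contralateral libraries.

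The log2 difference of Grin3b, lesion minus contralateral, was -1.18 ± 0.19 at day 7 (standard error), with an adjusted p of 0.000285 by edgeR's quasi-likelihood test with Benjamini-Hochberg adjustment over 22294 genes. The difference was -1.34 ± 0.18 at day 14 (adjusted p = 1.68e-05) and -1.21 ± 0.18 at day 30 (adjusted p = 0.000158). The lesion side thus held 43.6, 39.3 and 43.1% of the contralateral mean at days 7, 14 and 30. The difference did not change detectably between days: the 95% interval ran from -0.71 to 0.38 for day 14 minus day 7 and from -0.57 to 0.52 for day 30 minus day 7. Against day 0 the lesion side was lower by log2 differences of -1.29, -1.20 and -1.03 at days 7, 14 and 30 (adjusted p = 1.2e-05, 1.77e-05 and 7.69e-05). The contralateral side differed from day 0 by -0.12 ± 0.17, 0.14 ± 0.16 and 0.17 ± 0.16, none of which passed the test.

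Motor neuron genes differed in both directions. Chat, which makes acetylcholine, stood on the lesion side at 57.3, 34.4 and 56.2% of the contralateral mean at days 7, 14 and 30. Slc5a7, the choline transporter of cholinergic terminals, stood at 44.1, 31.8 and 60.8%, and Chodl, a marker of fast motor neurons, at 37.9, 32.1 and 33.6%. The motor neuron transcription factor genes Lhx4 (71.6, 55.4 and 74.4%) and Isl1 (62.2, 48.9 and 50.8%) stood below 100% as well. Prph, which encodes a neuronal intermediate filament, stood at 157, 177 and 93.9%, and Calca, which encodes the peptide CGRP, at 164, 134 and 217%. At day 7 neither passed the test, although the sides did not overlap for either (adjusted p = 0.142 for Prph and 0.293 for Calca). Of the 10 motor neuron markers 1 was lower and none higher at day 7, 5 were lower and 1 (Prph) higher at day 14, and 3 were lower and 1 (Calca) higher at day 30. Their summed level was 310 to 454 CPM on the lesion side against 332 to 424 CPM on the contralateral side at day 7, 302 to 340 against 385 to 445 CPM at day 14, and 311 to 447 against 386 to 594 CPM at day 30. In bulk tissue fewer motor neurons and less Grin3b RNA in each motor neuron cannot be told apart, and the part of the other motor neuron genes in the Grin3b difference was not tested.

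Grin3b lies on chromosome 10 at 79970715 to 79977190 on the plus strand (GRCm38, GENCODE M21), and its exons overlap those of Tmem259 on the opposite strand. The library kit keeps strand but the counting setting is not given in the sources used here, so reads of the 2 genes may have been shared. Tmem259 had 103 to 139 CPM in the 21 libraries, far above Grin3b (1.84 to 8.28 CPM), so even a small shared part could weigh on the Grin3b counts. Tmem259 itself differed between the sides by 0.01, 0.16 and -0.09 on the log2 scale at days 7, 14 and 30, none of which passed the test. The part of shared reads in the Grin3b counts was not tested. The promoter of Grin3b is shown because this gene differed on every day. It spans chr10:79970474-79970773 of GRCm38.p6 on the plus strand in RefSeq, from 250 bases before to 50 bases after the annotated start, and the capitals mark a match to the TATA box letters TATAAA.
Grin3b promoter: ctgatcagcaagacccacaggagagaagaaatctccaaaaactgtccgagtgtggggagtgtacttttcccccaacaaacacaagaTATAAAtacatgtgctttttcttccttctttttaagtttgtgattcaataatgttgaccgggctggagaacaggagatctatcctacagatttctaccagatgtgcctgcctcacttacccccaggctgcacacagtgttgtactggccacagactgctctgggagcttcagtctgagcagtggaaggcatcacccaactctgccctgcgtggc
The TATAAA match begins at base 87 of this window, well before the annotated start, and whether it acts was not tested. This window held 48.3% G and C and 3 CG dinucleotides. On either strand TATAAA occurred in 13.6% of the 32851 RefSeq promoters of this length, and in 5 of the 39 entries found for 32 of the receptor genes. The AP-1 letters TGAGTCA occurred in 5.20% of all promoters and the CRE letters TGACGTCA in 1.79%, and neither occurred in these 39 windows.

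**Figure D2:**
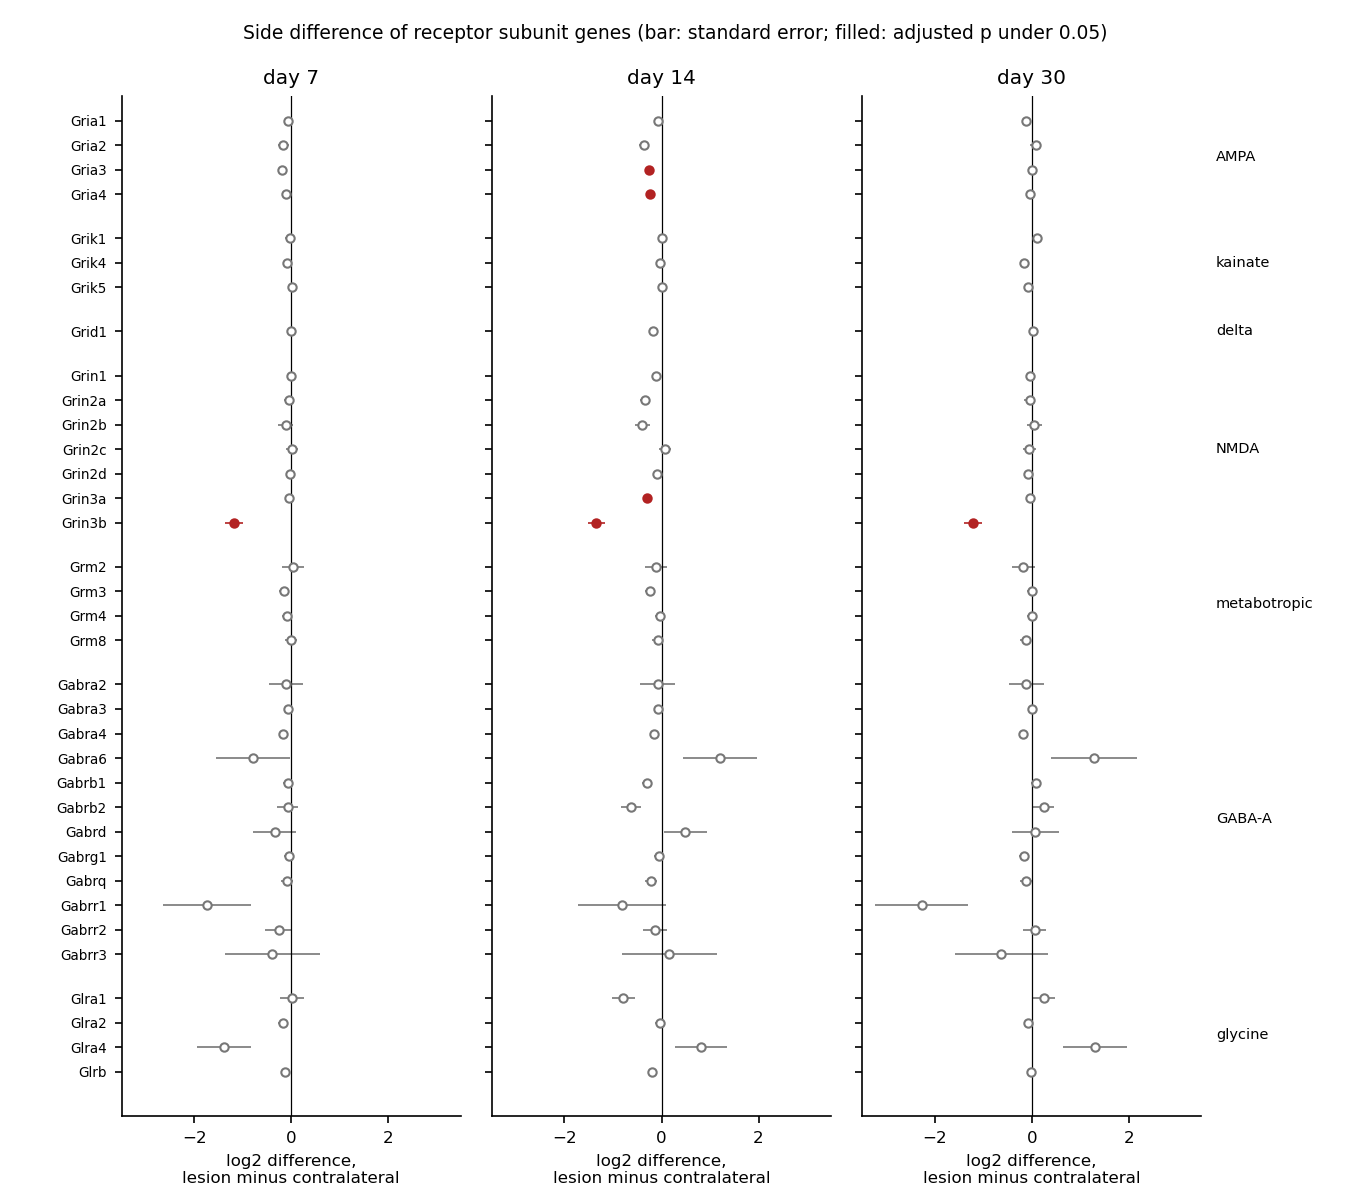
Log2 difference, lesion minus contralateral, of the receptor genes named in the text at days 7, 14 and 30, with the standard error as bars and filled points where the adjusted p was under 0.05. Grin3b stands at -1.18, -1.34 and -1.21, and the other filled points, all at day 14, lie between -0.29 and -0.24.

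At day 7 Grin3b was the only receptor gene called of 48, where 1.65% of all genes tested were called, 1.56% higher on the lesion side and 0.0942% lower. Of the 48 estimates 40 were below 0, against 52.7% of all genes tested. The median log2 difference was -0.08 over the receptor genes and -0.01 over all genes. Contralateral replicate 3 was the highest of its group in 27 of 48 receptor genes. Without it 28 estimates were below 0, against 50.7% of all genes, and the receptor median was -0.03. Without any other single library 36 to 40 were below 0. The class counts that follow use all libraries. All 4 AMPA and 17 of 18 GABA-A receptor genes had estimates below 0, compared with 3 of 5 kainate and 4 of 7 metabotropic glutamate receptor genes. Gria3 differed by -0.18 ± 0.07 (adjusted p = 0.341), with no overlap between the sides. In 9 of 48 receptor genes all lesion libraries lay below all contralateral libraries, against 5.26% of all genes, and in 2 they lay above them (7.26%).

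At day 14, 5 receptor genes were lower on the lesion side and none was higher, where 3.88% of all genes tested were called, 2.58% higher and 1.31% lower. Besides Grin3b they included the AMPA genes Gria3 and Gria4 and the NMDA gene Grin3a. The differences of these 3 genes were much smaller than that of Grin3b. Of the 48 estimates 40 were below 0, against 50.0% of all genes, and the median was -0.16 over the receptor genes and 0.00 over all genes. Without contralateral replicate 1, 34 were below 0, against 48.7% of all genes, and the receptor median was -0.11. Leaving out any other single library gave 38 to 42 below 0. All lesion libraries lay below all contralateral libraries in 19 of 48 receptor genes (10.5% of all genes) and above them in none (10.7% of all genes).

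Gria3 and Gria4 encode GluA3 and GluA4, AMPA receptor subunits, and GluA4 is known for the fast receptors of brainstem neurons. Gria3 had 115, 101 and 109 CPM on the lesion side at day 14, against 132, 130 and 128 CPM on the contralateral side. Gria4 had 198, 181 and 191 CPM on the lesion side, against 222, 229 and 220 CPM on the contralateral side. The sides did not overlap for either gene. The log2 difference was -0.27 ± 0.07 for Gria3 (edgeR adjusted p = 0.0236) and -0.24 ± 0.06 for Gria4 (adjusted p = 0.0227). Each overlaps a small RNA gene on its own strand (Gm22413 in Gria3, Gm23811 in Gria4), whose reads the counting could split from it. Gria2, whose edited subunit makes AMPA receptors impermeable to calcium, had 140, 95.4 and 120 CPM against 145, 159 and 152 CPM, a difference of -0.36 ± 0.11 that did not pass the edgeR test (adjusted p = 0.0813). DESeq2 and limma-voom called this difference of Gria2. Gria1 overlapped between the sides, at -0.08 ± 0.07.

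Grin3a encodes GluN3A, the close relative of GluN3B. It had 72.4, 59.8 and 67.6 CPM on the lesion side at day 14, against 83.5, 82.6 and 77.8 CPM on the contralateral side, with no overlap. Its log2 difference was -0.29 ± 0.07 (edgeR adjusted p = 0.0144). Its estimates at days 7 and 30 were -0.05 ± 0.07 and -0.03 ± 0.07, and the sides overlapped. Grin1, the subunit that every NMDA receptor needs, differed by -0.12 ± 0.07 at day 14 with overlapping sides, while Grin2a differed by -0.34 ± 0.11 (edgeR adjusted p = 0.080) without overlap. DESeq2 called Grin2a, as did edgeR with the replicate number as a block, and limma-voom did not.

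Gabrb2, which encodes a beta subunit of the GABA-A receptor, differed by -0.63 ± 0.21 at day 14 (edgeR adjusted p = 0.122), and the sides did not overlap. DESeq2 and limma-voom called Gabrb2. Among the glycine receptor genes Glra1, which encodes the adult alpha subunit, had 55.6, 40.2 and 45.3 CPM on the lesion side, against 85.0, 83.1 and 74.2 CPM on the contralateral side. This difference of -0.78 ± 0.24 did not pass the test (adjusted p = 0.0866), although DESeq2 and limma-voom called it.

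**Figure D3:**
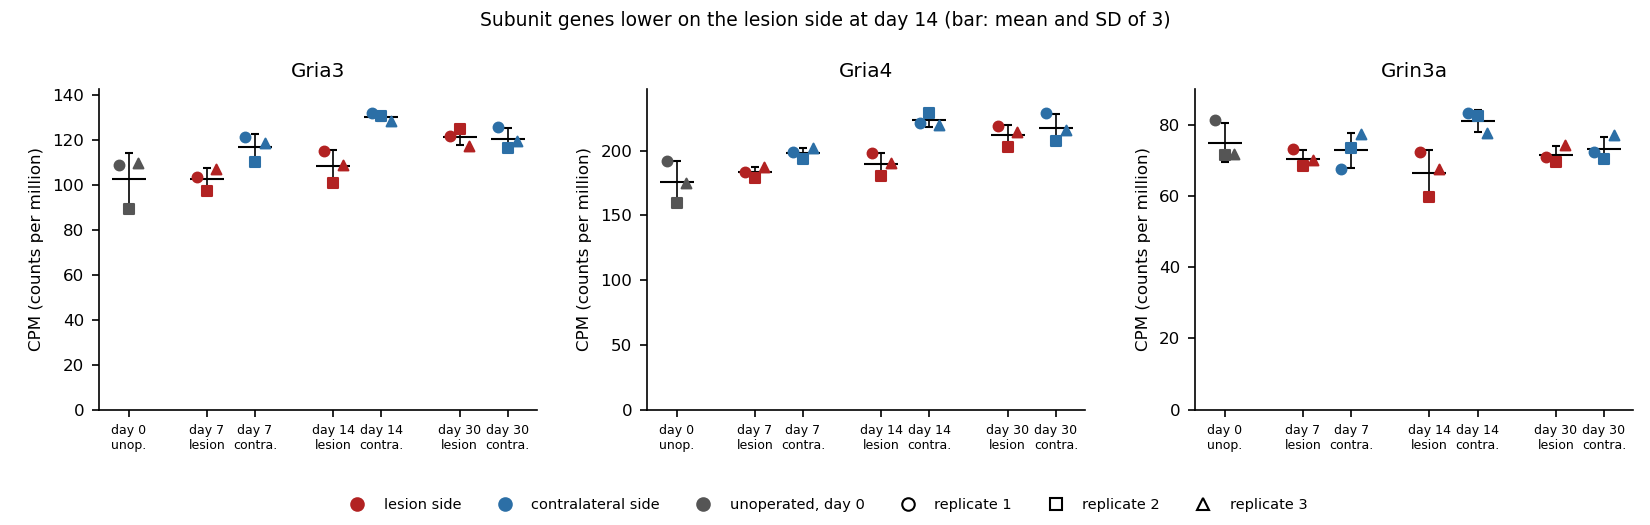
CPM of Gria3, Gria4 and Grin3a in each of the 21 libraries, with the mean and SD of 3 libraries as bars and the replicate number as the symbol. At day 14 each lesion library lies below each contralateral library in all 3 genes, and lesion replicate 2 is the lowest library of its group.

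The summed levels of some receptor classes, but not all, showed the same order at day 14. The AMPA genes summed to 554 to 639 CPM on the lesion side against 685 to 704 CPM on the contralateral side, and the GABA-A genes to 839 to 934 against 987 to 1055 CPM. The glycine receptor genes summed to 388 to 455 against 483 to 524 CPM, and the NMDA genes to 458 to 468 against 502 to 570 CPM. The kainate sums (224 to 227 against 223 to 251 CPM) and the metabotropic glutamate sums (205 to 252 against 235 to 268 CPM) overlapped between the sides.

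The day 14 calls other than that of Grin3b depended on single libraries. Without lesion replicate 2, which had the low mitochondrial share given above and was the lowest of its group in 30 of 48 receptor genes (37.9% of all genes), Grin3b alone remained called, with 1.97% of all genes called. The same held without contralateral replicate 1 (2.34% of all genes) or contralateral replicate 2 (1.94%). Contralateral libraries were as uneven: replicate 1 was the highest of its group in 33 of 48 receptor genes, and replicate 3 the lowest in 35 (32.8% of all genes). Without lesion replicate 3, 3 receptor genes were called (2.88% of all genes), without contralateral replicate 3, 2 (2.21%), and without lesion replicate 1, 12 (8.89%). The adjusted p over all settings ranged from 0.00246 to 0.125 for Grin3a, from 0.00481 to 0.157 for Gria3 and from 0.00432 to 0.124 for Gria4. Pan-neuronal markers moved in both directions at day 14, with Tubb3 and Stmn2 higher and Map2 lower among 10, and summed to 10029 to 11080 CPM on the lesion side against 9824 to 10307 CPM on the contralateral side. Of the 6 microglial markers 5 were higher on the lesion side, and they summed to 303 to 355 against 191 to 198 CPM. The part of these marker levels in the lower receptor levels was not tested.

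At day 30 Grin3b was again the only receptor gene called, where 1.16% of all genes were called, 1.04% higher and 0.121% lower. The estimates of the other genes lay on both sides of 0: 23 of 48 were below it, against 49.3% of all genes, and the median was 0.01. Gria3 differed by 0.01 ± 0.07 and Gria4 by -0.04 ± 0.06, with overlapping sides. Lesion libraries lay wholly below contralateral libraries in 7 of 48 receptor genes (8.28% of all genes) and wholly above them in 2 (9.71%).

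No receptor gene passed the test of a difference in side effect between days. For day 14 minus day 7 edgeR called 0 of 48 receptor genes and 0% of all genes, and 4 receptor genes had an unadjusted p under 0.05, as had 5.92% of all genes (DESeq2 5, limma-voom 6, each with 0 called). For day 30 minus day 7, 0 were called against 0.0269% of all genes and 1 had an unadjusted p under 0.05, as had 4.31% of all genes (1 by either other tool). For day 30 minus day 14, 0 were called against 0.0807% of all genes and 9 had an unadjusted p under 0.05, each with a positive difference, where 15.1% of all genes had such a p in either direction (11 receptor genes by either other tool, 0 called). Among these, Gria3 had a difference of 0.28 ± 0.10 and Grin3a of 0.25 ± 0.10 (adjusted p = 0.193 and 0.221). Without day 14 lesion replicate 1, 3 receptor genes were called in this last comparison, among them Gabrb2 and Gria2, and 4.21% of all genes.

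Genes for proteins that traffic, anchor or supply these receptors were compared between the sides. Of all genes tested 1.65, 3.88 and 1.16% were called at days 7, 14 and 30. Of 14 genes for auxiliary subunits of AMPA and kainate receptors none was called on any day, nor was any of 19 excitatory scaffold genes or of 6 genes for ligands of delta receptors. Among 10 genes of inhibitory scaffolds, chloride transport and GABA-B receptors, 2 were called at day 14. Slc12a5 encodes KCC2, the transporter that keeps neuronal chloride low. It had 471 ± 66 CPM on the lesion side, against 601 ± 36 CPM on the contralateral side (SD, n = 3 libraries each), a log2 difference of -0.35 ± 0.08 (edgeR adjusted p = 0.00618). Gabarap, a trafficking protein of GABA-A receptors and of autophagy, was higher by 0.29 ± 0.08 (adjusted p = 0.0474). Of 16 genes for transmitter synthesis and transport Gad2, which makes GABA, was lower at day 14 by -0.26 ± 0.07 on the log2 scale (adjusted p = 0.0375). The calls of Slc12a5, Gabarap and Gad2 are given for the main fit only. Over all genes this day 14 comparison called 866, but 432 without contralateral replicate 2 and 435 with only the groups compared.

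The levels of the receptor genes could be compared per kilobase of the gene length deposited with the counts. Glrb, the beta subunit that anchors glycine receptors at synapses, ranked first of the 48, with a mean of 77.9 CPM per kilobase over the 21 libraries. It was followed by Gria4 (32.5 CPM per kilobase), Gabra3 (31.9) and Gria1 (31.3), and Grik5 had 27.8. In the unoperated pons Gria1 (30.5 ± 2.3 CPM per kilobase) and Gria4 (28.6 ± 2.6) overlapped, and both lay above Gria3 (10.4 ± 1.2) and Gria2 (6.36 ± 0.94). Grik5, a kainate subunit that works only with others, had 28.1 ± 0.4 CPM per kilobase and stood well above the next kainate gene, Grik4 (5.83 ± 0.33). Grid1, a delta receptor gene, had 10.4 ± 0.8 CPM per kilobase.

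Among NMDA genes Grin1 was first at day 0 (21.6 ± 1.5 CPM per kilobase), then Grin2c (9.39 ± 1.02), Grin2d (7.96 ± 0.23) and Grin3a (6.12 ± 0.45), with no overlap between neighbours. Grin3b (1.99 ± 0.23), Grin2a (1.96 ± 0.27) and Grin2b (1.72 ± 0.43) overlapped at the lower end. Grm3, a group II receptor found in astrocytes as well as neurons, led the metabotropic genes (13.7 ± 1.5). Gabra3 (25.4 ± 2.7) led the GABA-A genes. Glra1 (28.1 ± 10.7) followed Glrb (56.9 ± 3.3) among the glycine receptor genes, and Glra2, the alpha subunit known from the immature nervous system, stood at 3.85 ± 0.13.

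Over the 21 libraries Grik5, the leading kainate gene, had 99.4, 107 and 116 CPM as its lowest, median and highest value, Grin1 188, 209 and 252 CPM, and Grid1 54.1, 59.2 and 70.2 CPM. Gria4 had 159, 199 and 229 CPM and Grm3 29.2, 39.6 and 46.1 CPM. Between the sides Grik5 differed by 0.02 ± 0.06, 0.00 ± 0.06 and -0.09 ± 0.06 at days 7, 14 and 30, and Grin1 by -0.01 ± 0.07, -0.12 ± 0.07 and -0.04 ± 0.07. Grid1 differed by -0.01 ± 0.07, -0.16 ± 0.07 and 0.03 ± 0.07, and Grm3 by -0.16 ± 0.09, -0.25 ± 0.09 and 0.00 ± 0.09. None of these side differences passed the test.

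**Figure D4:**
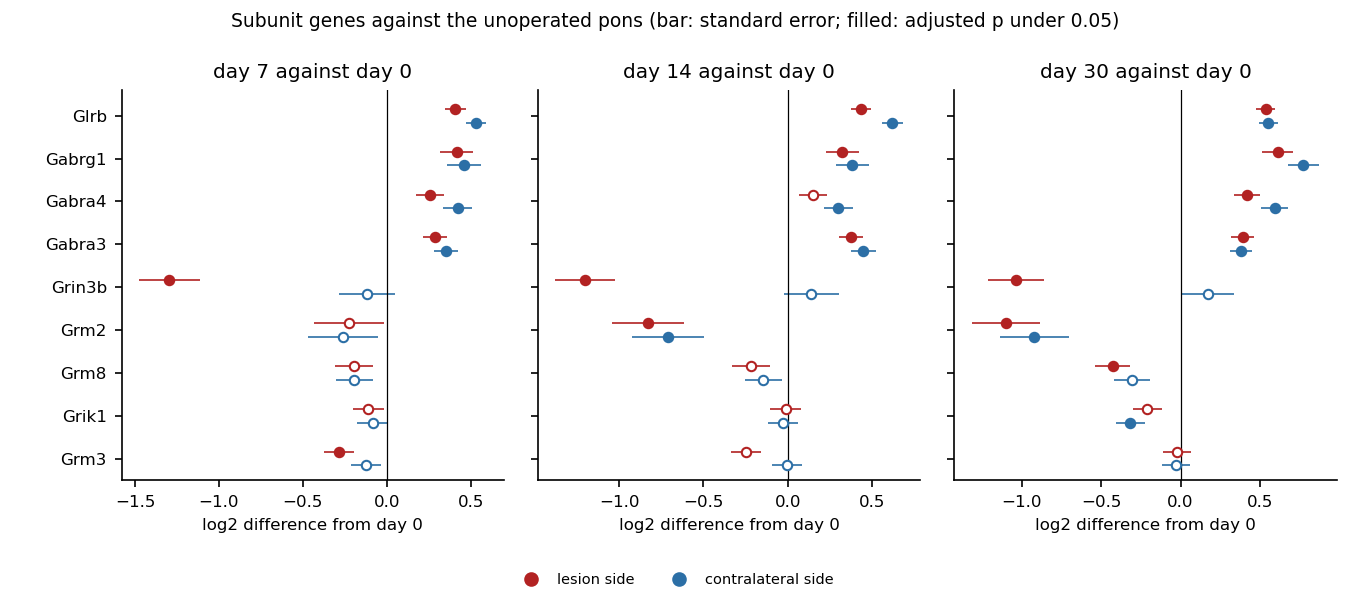
Log2 difference from day 0 of the receptor genes described with full values, on the lesion side and on the contralateral side at days 7, 14 and 30, with the standard error as bars and filled points where the adjusted p was under 0.05. Glrb is filled on both sides at every day, and Grin3b is filled on the lesion side alone.

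Against the unoperated pons some receptor genes were higher and fewer were lower, on both sides. These comparisons share the day 0 libraries, so their results are given side by side and are not independent. On the lesion side 9 receptor genes were higher and 2 lower at day 7 (8.14 and 4.32% of all genes), 8 higher and 3 lower at day 14 (9.78 and 7.03%), and 15 higher and 4 lower at day 30 (12.7 and 9.69%). On the contralateral side 9 were higher and 0 lower at day 7 (6.84 and 3.66% of all genes), 18 higher and 1 lower at day 14 (9.09 and 6.73%), and 12 higher and 3 lower at day 30 (9.32 and 6.81%). The higher genes included 5, 6 and 8 of 18 GABA-A genes on the lesion side and 6, 10 and 6 on the contralateral side at days 7, 14 and 30. No kainate or delta receptor gene was called higher in any of the 6 comparisons. Mitochondrial counts took 5.84 to 7.29% in the day 30 libraries against 3.05 to 3.60% at day 0. Day, age and sequencing depth changed together between day 0 and the operated groups and cannot be told apart. The sequencing lane code in the library names was the same at days 0 and 7, and differed at days 14 and 30. Days 0 and 7 also shared some barcodes under that code, so their libraries may come from different runs. Day and sequencing lane or run cannot be told apart either.

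Glrb rose to 351, 356 and 349 CPM on the lesion side at day 7, against 281, 250 and 263 CPM at day 0. Its lesion side had 381, 334 and 360 CPM at day 14 and 358, 385 and 409 CPM at day 30. The contralateral side had 361, 394 and 394 CPM at day 7, 409, 422 and 392 CPM at day 14, and 385, 376 and 404 CPM at day 30. No operated library overlapped the day 0 libraries. The log2 differences were 0.41, 0.43 and 0.54 on the lesion side and 0.53, 0.62 and 0.55 on the contralateral side, with a standard error of 0.06 and a largest adjusted p of 2.57e-05.

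Gabrg1, Gabra4 and Gabra3 also rose. Gabrg1, a gamma subunit also found in glia, averaged 53.0 ± 2.2, 49.8 ± 6.5 and 60.7 ± 2.5 CPM on the lesion side and 54.7 ± 10.0, 51.9 ± 1.6 and 67.9 ± 4.0 CPM on the contralateral side, against 39.7 ± 2.5 CPM at day 0 (SD, n = 3 libraries each). All 6 differences passed the test, although the lesion side at day 14 lost its call without day 0 replicate 1 (adjusted p = 0.0991) or 3 (0.0639) or lesion replicate 1 (0.0548) or 3 (0.158). The largest stood at day 30 on the contralateral side (0.77 ± 0.10, adjusted p = 5.28e-06). Gabra3 averaged 122 ± 2, 129 ± 4 and 131 ± 9 CPM on the lesion side, against 99.8 ± 10.8 CPM at day 0, and all of its 6 differences (0.29 to 0.45) passed, the lesion side at day 7 not without day 0 replicate 2 (adjusted p = 0.0513). Gabra4 rose in 5 of 6 comparisons, by 0.26 to 0.59, and its lesion-side difference at day 14, 0.15 ± 0.08, did not pass. The call at day 7 on the lesion side (0.26 ± 0.09) was lost without any single library other than lesion replicate 1 (adjusted p = 0.0739 to 0.194), and that at day 14 on the contralateral side without contralateral replicate 3 (0.0943). Grin2a, an NMDA subunit gene of mature synapses, rose in all 6 comparisons, by 0.31 to 0.67. Its lesion-side call at day 7 was kept without each single library. The lesion-side calls at days 14 and 30 were lost without day 0 replicate 2 or 3. That at day 14 was also lost without lesion replicate 1 or 3, and that at day 30 without lesion replicate 2 or 3. Over these losses the adjusted p was 0.0992 to 0.143 at day 14 and 0.0964 to 0.173 at day 30. The contralateral call of Grin2a at day 30 was lost without any single library other than day 0 replicate 1 (0.0540 to 0.118). The AMPA genes Gria2, Gria3 and Gria4 rose on the contralateral side at days 14 and 30 and on the lesion side at day 30, by 0.23 to 0.62. At day 30 the contralateral call of Gria2 was lost without day 0 replicate 2 or 3 or contralateral replicate 3 (adjusted p = 0.0510 to 0.0733), and that of Gria3 without day 0 replicate 2 or contralateral replicate 1 (0.0877 to 0.157). The lesion-side call of Gria3 was lost without day 0 replicate 2 (0.107).

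Few receptor genes fell against day 0. Grm2, a group II metabotropic receptor that dampens transmitter release, had 7.24, 4.76 and 5.87 CPM on the lesion side at day 14 and 5.86, 3.72 and 5.01 CPM at day 30. It had 7.68, 5.35 and 6.21 CPM on the contralateral side at day 14 and 5.06, 6.47 and 5.17 CPM at day 30, against 8.01, 14.7 and 8.72 CPM at day 0. Day 0 replicate 2 was far above the other day 0 libraries. The differences were -0.83 and -1.10 on the lesion side and -0.71 and -0.92 on the contralateral side (adjusted p = 0.00986, 0.000978, 0.0280 and 0.00582). Without day 0 replicate 2 the difference was -0.50 on the lesion side (adjusted p = 0.0529) and -0.38 on the contralateral side (adjusted p = 0.193) at day 14. The day 7 differences of Grm2, -0.23 on the lesion side and -0.26 on the contralateral side, did not pass. Grm4, another presynaptic metabotropic receptor gene, fell at day 30 by log2 differences of -0.30 on the lesion side and -0.31 on the contralateral side. The Grm4 call was lost on the lesion side without day 0 replicate 1 or 3 or lesion replicate 2 or 3 (adjusted p = 0.0505 to 0.119), and on the contralateral side without any single library other than day 0 replicate 2 (0.0564 to 0.136). Gabrq, a theta subunit gene of the GABA-A receptor, fell on the lesion side at day 14 (-0.38 ± 0.12), a call that was lost without any 1 of the 6 libraries compared (adjusted p = 0.0539 to 0.0960). Grm8 fell on the lesion side at day 30 (-0.43 ± 0.11, adjusted p = 0.00655), Grik1 on the contralateral side at day 30 (-0.31 ± 0.09, adjusted p = 0.0198) and Grm3 on the lesion side at day 7 (-0.28 ± 0.09, adjusted p = 0.0367). Leaving out single libraries ended each of these calls: for Grm8 day 0 replicate 2 (adjusted p = 0.0805), for Grik1 day 0 replicate 2 (0.0835) or contralateral replicate 1 (0.0786) or 2 (0.0720), and for Grm3 day 0 replicate 1 (0.190) or 3 (0.0872) or lesion replicate 2 (0.197) or 3 (0.0888).

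Day 0 replicate 2 was the lowest of its group in 30 of the 48 receptor genes (37.5% of all genes). Without it 8, 7 and 12 receptor genes were called on the lesion side at days 7, 14 and 30 (11.2, 14.1 and 16.2% of all genes), and 9, 14 and 12 on the contralateral side (9, 10.1 and 13.5%). With it the numbers were 11, 11 and 19 on the lesion side and 9, 19 and 15 on the contralateral side. Without day 0 replicate 1, 15 were called on the contralateral side at day 7 (8.74% of all genes). Marker sums also differed between day 0 and the operated libraries. Pan-neuronal markers summed to 9283 to 11080 CPM in operated libraries against 8513 to 8888 CPM at day 0, and oligodendrocyte markers to 24026 to 30630 CPM against 31204 to 33278 CPM. Endothelial markers summed to 177 to 232 CPM against 250.2 to 279 CPM. The part of these shifts in the receptor results was not tested.

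Partner genes of the receptors were also called against day 0. Their calls are given for the main fit only. Of all genes tested 6.84 to 12.7% were called higher and 3.66 to 9.69% lower in these comparisons. Of 6 delta receptor ligand genes 2 to 4 were higher in each comparison and none was lower. Of 16 genes for transmitter synthesis and transport 1 to 5 were higher and 0 to 2 lower, the higher ones including Gad1, an enzyme of GABA synthesis, by 0.26 on the lesion side and 0.34 on the contralateral side at day 7. Slc12a5 averaged 500.0 ± 12.4 CPM on the lesion side and 520 ± 9.09 CPM on the contralateral side at day 30, against 629 ± 64.4 CPM at day 0 (SD, n = 3 libraries each), differences of -0.33 ± 0.08 and -0.27 ± 0.08 (edgeR adjusted p = 0.00226 and 0.0129). Among 14 auxiliary subunit genes Neto2, an auxiliary protein of kainate receptors, rose in all 6 comparisons, by 0.33 to 0.49. Cnih2, which slows AMPA receptor gating, fell on the lesion side at days 14 and 30 (-0.33 and -0.30) and on the contralateral side at day 14 (-0.35), and up to 5 of the 14 were lower in a comparison. Of 19 excitatory scaffold genes 0 to 2 were higher and 0 to 2 lower, with Nlgn1, a postsynaptic adhesion protein, higher by 0.44 on the lesion side and 0.29 on the contralateral side at day 30.

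**Figure D5:**
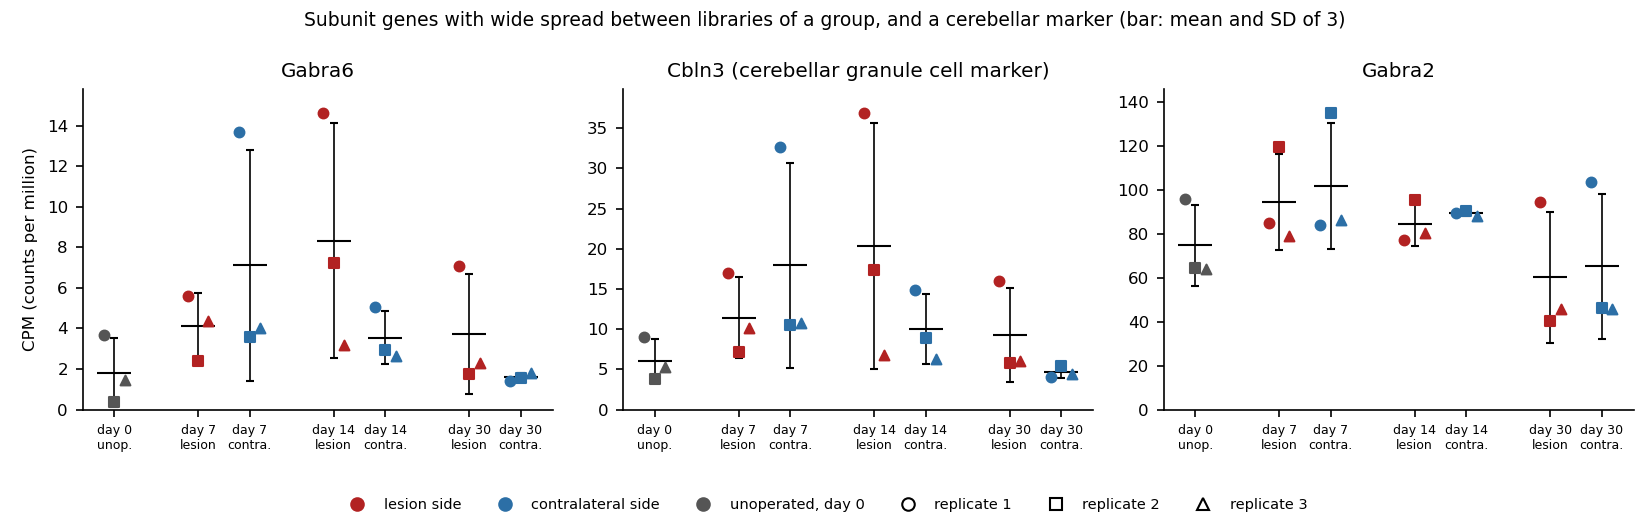
CPM of Gabra6, of the cerebellar granule cell marker Cbln3 and of Gabra2 in each of the 21 libraries, with the mean and SD of 3 libraries as bars and the replicate number as the symbol. Gabra6 and Cbln3 are highest in the same 2 libraries, and Gabra2 at day 30 is near 100 CPM in replicate 1 of both sides and under 50 CPM in the others.

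Some receptor genes varied more between libraries of a group than between groups. Gabra6, a subunit of cerebellar granule cells, ranged from 0.351 to 14.6 CPM. It was highest in day 14 lesion replicate 1 (14.6 CPM) and day 7 contralateral replicate 1 (13.7 CPM), the libraries in which Cbln3, a secreted protein of granule cells, was also highest (36.9 and 32.7 CPM). Gabrd, another granule cell subunit, had 6.33 and 6.67 CPM in these libraries and 1.60 to 4.69 CPM in the others. Of the 8 cerebellar markers none was called between the sides on any day. The levels of Gabra6 and Gabrd moved with these cerebellar markers, whose part in them was not tested.

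Gene position was shared by some members. Of the 48, 18 lay in 6 clusters, such as that of Gabrg1, Gabra2, Gabra4 and Gabrb1 on chromosome 5 (70751047 to 72149037). Within the chromosome 5 cluster Gabrg1 and Gabra4 rose on both sides at day 30, by 0.61 and 0.42 on the lesion side and by 0.77 and 0.59 on the contralateral side. Gabra2 in the same cluster had 94.5, 40.4 and 45.6 CPM on the lesion side at day 30 and 104, 46.2 and 46.0 CPM on the contralateral side, so a replicate number rather than a side marked its high libraries.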

How the data were processed

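Strand-specific poly(A) RNA libraries were made from 300 ng RNA and sequenced as single 50-base reads. Per the submitters' processing notes, CASAVA 1.8.2 was used, and the authors counted reads per gene with featureCounts (Rsubread) on GRCm38.p4. Whether that counting used strand is not given in the sources used here. The deposited counts are raw whole numbers per gene. The authors also deposited log2 CPM values from limma's voom, used here only to check the counts: 22269 of 22294 genes tested could be matched. The day 30 columns were assigned to sides as the sample descriptions state. The gene length deposited with the counts was used only to scale CPM per kilobase.

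Genes with a summed count above 29, the 32nd percentile of the 32815 genes with any count, were tested, leaving 22294. Counts were fitted with edgeR 4.0.16 (R 4.3.3): TMM factors, 1 coefficient for each of the 7 groups, the robust quasi-likelihood F-test, and Benjamini-Hochberg adjustment over 22294 genes with a threshold of 0.05. DESeq2 1.42.0 and limma-voom (limma 3.58.1) were alternatives, as were DESeq2 size factors, no count filter, filterByExpr, a fit of only the groups compared, a replicate block, and leaving out each library. With 3 against 3 libraries an exact test of a single value cannot go below p = 0.1, so none is given. The script was tested on simulated data: edgeR recovered 98.5% of 200 genes changed 2-fold among 22294 in the day 7 side comparison. The changed genes were drawn only from well-counted genes, so this share does not cover genes with low counts or differences under 2-fold. CPM per kilobase used the gene lengths deposited with the counts. Nothing in the labels says that replicates came from separate animals, so p-values measure the spread between these libraries, which may be technical.

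Lesion and contralateral libraries carry the same replicate numbers. The deviations of same-numbered libraries from their group means correlated at 0.241, 0.219 and 0.142 at day 7 and 0.198, 0.183 and 0.170 at day 30, so the numbers were taken to pair the sides on those days. At day 14 they correlated at 0.203, -0.0225 and 0.145, and the numbers were not taken to pair. The main edgeR fit had no replicate term on any day, so its standard errors and p-values do not use the pairing. Only the replicate block, an alternative, uses it.

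The receptor genes, the partner lists and the markers were chosen with earlier results of these data known. Receptor genes were named with full values where they passed the test between the sides or of a difference between days, where they were among the 5 rising and 5 falling called genes with the smallest adjusted p against day 0, or where they had the highest mean level per kilobase of their class; partner and marker genes by the smallest adjusted p of their list. Gria1, Gria2, Grin2a, Gabra2, Gabra6, Gabrb2, Gabrd, Gabrr2 and Glra1 were named after their values were seen. Some genes that this rule selects are not reported here and not drawn, although counts over all receptor genes include them.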

Additional observations from a re-analysis of the deposited data

How the results depend on the processing

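Grin3b was lower on the lesion side, past the threshold, on all 3 days in all 13 alternatives, with adjusted p up to 0.00540 at day 7, 0.000646 at day 14 and 0.00292 at day 30. Of 585 values of named receptor genes between the sides under these alternatives 527 kept their direction and their side of the threshold. The same held for 365 of 396 values against day 0, where the alternatives were chosen after seeing the data. The number of receptor genes called depended on the setting. At day 14 it was 10 with DESeq2, 8 with limma-voom, 3 with only the groups compared, 6 with the replicate block and 1 to 12 when libraries were left out. The replicate block gave 1 gene at day 7 and 1 at day 30, and it changed no other call on these paired days. With only the groups compared it was 2 at day 7, 7 for lesion day 7 against day 0 and 6 for lesion day 14 against day 0, and DESeq2 gave 15 for contralateral day 7 against day 0. Leaving out libraries gave 6 to 8, 7 to 14 and 12 to 19 for the lesion side against day 0 at days 7, 14 and 30, 9 to 15 for the contralateral side at day 7, and 0 to 3 for day 30 minus day 14. Over all genes the day 14 side comparison called 866 (435 with only the groups compared, 432 to 1983 without single libraries) and the day 30 one 259 (569 and 158 to 218). Lesion day 14 against day 0 called 3749 (1817 with only the groups compared) and contralateral day 14 called 3527 (2246 to 3860 without single libraries). For the difference between days, day 14 minus day 7 called 0 genes (DESeq2 1, no count filter 2, replicate block 1), day 30 minus day 7 called 6 (29, 32 and 2 to 7 without single libraries, 20 with only the groups compared), and day 30 minus day 14 called 18 (121, 331, 92 with only the groups compared, and 5 to 938). The cause of these shifts was not tested.

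Estimates near 0 that did not pass the test changed sign when libraries were left out. At day 7 these log2 differences ran from -0.19 to 0.037 for Gabrg1, -0.036 to 0.16 for Grm2, -0.11 to 0.092 for Grm8, -0.13 to 0.065 for Grik1, -0.045 to 0.034 for Grid1 and -0.071 to 0.039 for Grin1. At day 14 they ran from -0.16 to 0.036 for Gabrg1, -0.27 to 0.035 for Grm2, -0.022 to 0.088 for Grik1 and -0.030 to 0.073 for Grik5. At day 30 the range was -0.013 to 0.040 for Gria3, -0.067 to 0.0015 for Gria4, -0.062 to 0.0082 for Grin3a, -0.063 to 0.032 for Glrb, -0.054 to 0.068 for Gabra3 and -0.016 to 0.033 for Grm3. Without a count filter Grm8 was 0.0023 at day 7, and with DESeq2 size factors Grik5 was -0.00057 at day 14. For Gabrr1 and Gabrr3, with 62 and 30 counts over all libraries, no difference between the sides was detectable at this depth.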

Other observations

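Gabra2, an alpha subunit gene of the GABA-A receptor, followed the replicate number more than the side. At day 7 it had 85.0, 119 and 79.0 CPM on the lesion side and 84.2, 135 and 86.4 CPM on the contralateral side for replicates 1, 2 and 3. At day 14 it had 77.1, 95.6 and 80.4 CPM on the lesion side and 89.7, 90.2 and 88.1 CPM on the contralateral side. Each lesion library held 87.6 to 101% of the level of the contralateral library of the same number at days 7 and 30. At day 14 this range was 85.9 to 106%, but the contralateral libraries were nearly level, so no order by number showed.

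Gabrr2, a rho subunit gene of the GABA-A receptor, was higher than at day 0 by log2 differences of 1.11 at day 14 and 1.56 at day 30 on the lesion side, and of 1.24 and 1.50 on the contralateral side. The day 14 call on the lesion side was lost without lesion replicate 3 (adjusted p = 0.0804), the library with 106 counts of this gene against 35 and 56 in the other lesion libraries. The other calls of Gabrr2 were kept without each single library. These were the largest positive differences from day 0 among the receptor genes that passed the edgeR test. Its level at day 0 was 0.58 ± 0.10 CPM per kilobase (SD, n = 3 libraries), among the lowest of the GABA-A genes.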
